A study of Mus musculus with 6 samples.

Results

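The genes described here are 10 genes that hold haematopoietic stem cells (HSCs) in their niche or guide them into or out of it: *Cxcr4*, *Itga4*, *Itgb1*, *Cd44*, *Selplg*, *Vcam1*, *Robo4*, *S1pr1*, *Esam* and *Procr*. They were taken by gene name from an Agilent mouse array, on which they have 21 of the 56605 probes, and they are 10 of its 37074 gene names. The arrays measured RNA from LSK cells, which lack lineage markers and carry Sca-1 and c-Kit and among which HSCs and early progenitors lie, sorted from C57BL/6 mice at P6–8. There were 3 control arrays, from *Atg5*w/w;*Vav* mice, and 3 arrays labelled *Atg5*f/f;*Vav*, from mice whose floxed alleles of *Atg5*, a gene of autophagosome formation, are cut by iCre. Both groups carry the *Vav*-iCre transgene, which is active in haematopoietic cells, and *Atg5* in the other cells of the niche was not measured. The sources used here do not say whether a sample was 1 mouse or a pool, so n, SD and p refer to arrays and may measure technical spread alone. The comparison asks how the genes differ between LSK cells of both genotypes in the first week of life.

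HSCs stay in the BM through several kinds of contact. Stromal cells secrete the chemokine CXCL12, which holds cells that carry its receptor CXCR4, whereas the lipid sphingosine-1-phosphate (S1P) draws cells with the receptor S1PR1 towards the blood. Integrin VLA-4, the pair of the chains encoded by *Itga4* and *Itgb1*, binds VCAM1 and fibronectin, CD44 binds hyaluronan, and PSGL-1, the product of *Selplg*, binds the selectins. ROBO4 is a receptor of the Slit-binding Robo family, ESAM is a tight-junction adhesion molecule and PROCR is the endothelial receptor for protein C. The last group is shared by endothelial cells and HSCs, and all of its genes serve as HSC markers.

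The probes are 60-mers placed on the genome build mm9, and the first 30 bases of those on which the main values rest are shown so that each value can be tied to a stretch of transcript. Whether a probe lies in coding sequence or in a UTR was not analysed here. The first of the probes below, for *Vcam1*, starts at base 3060 of the transcript (chr3:115813216-115813275, minus strand), and the further *Vcam1* probe at base 842 (chr3:115828953-115829012, minus strand).
Vcam1, base 3060: tatatttttataggcaaatggtaaagaggt
Vcam1, base 842: aaccaagagtttggaagtaacctttactcc
Procr, base 1234: ggcagacttactgtaggcattcaaaacatc
Robo4, base 3618: accaatgcgctattctcattctaccgccac
Esam, base 1744: gttgtagcagggggataggaaagacatttt
S1pr1, base 2300: aagatgaaaatgtgttccttttttgtcaca
Itga4, base 9754: gtgtgtggaatgcattataaagatctaaca
Itga4, base 2292: taagatcttagacctggaagagaaacaaat
The *Procr* probe lies at chr2:155580945-155581004 (plus strand), that of *Robo4* at chr9:37221537-37221596 (plus strand), that of *Esam* at chr9:37345795-37345854 (plus strand) and that of *S1pr1* at chr3:115414020-115414079 (minus strand). The bright *Itga4* probe, at base 9754, lies at chr2:79173193-79173252 (plus strand).

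Levels are given as log2 signal relative to the 75th percentile of the same array, so 0 is the brightness that 75 of 100 spots do not exceed, and each step of 1 is a doubling. Since brightness also depends on the probe, levels of different probes are not set against each other. Differences are *Atg5*f/f;*Vav* minus control on the same scale, from limma fitted over the 32074 probes well above background on at least 3 arrays, with Benjamini-Hochberg adjustment over all of them and a threshold of 0.05. A gene is given by its brightest tested probe, and further probes are given beside it. All 10 genes and 20 of the 21 probes passed the filter, and the brightest probe of each gene was well above background on all 6 arrays.

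Of the 10 genes, *Vcam1*, *Robo4*, *S1pr1* and *Procr* were lower on arrays labelled *Atg5*f/f;*Vav*, *Itga4* was higher at its brightest probe, and *Cxcr4*, *Itgb1*, *Cd44*, *Selplg* and *Esam* did not pass the test. *Esam* lay just outside the threshold, with a difference between those of *S1pr1* and *Robo4*. The background for these counts is high: 34.1% of the 20778 genes tested were called, 18.7% as higher and 15.3% as lower. The median log2 fold change of the 10 genes was −0.59, against −0.03 over all genes tested. Control values lay wholly above or below the others for 8 of the 10 genes, all but *Itgb1* and *Selplg*, as they did for 55.9% of all genes (55.4% of all probes). With 3 arrays against 3, an exact permutation test of a single gene cannot give a 2-sided p under 0.1, so the calls rest on the spread that limma estimates across probes.

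**Figure D1:**
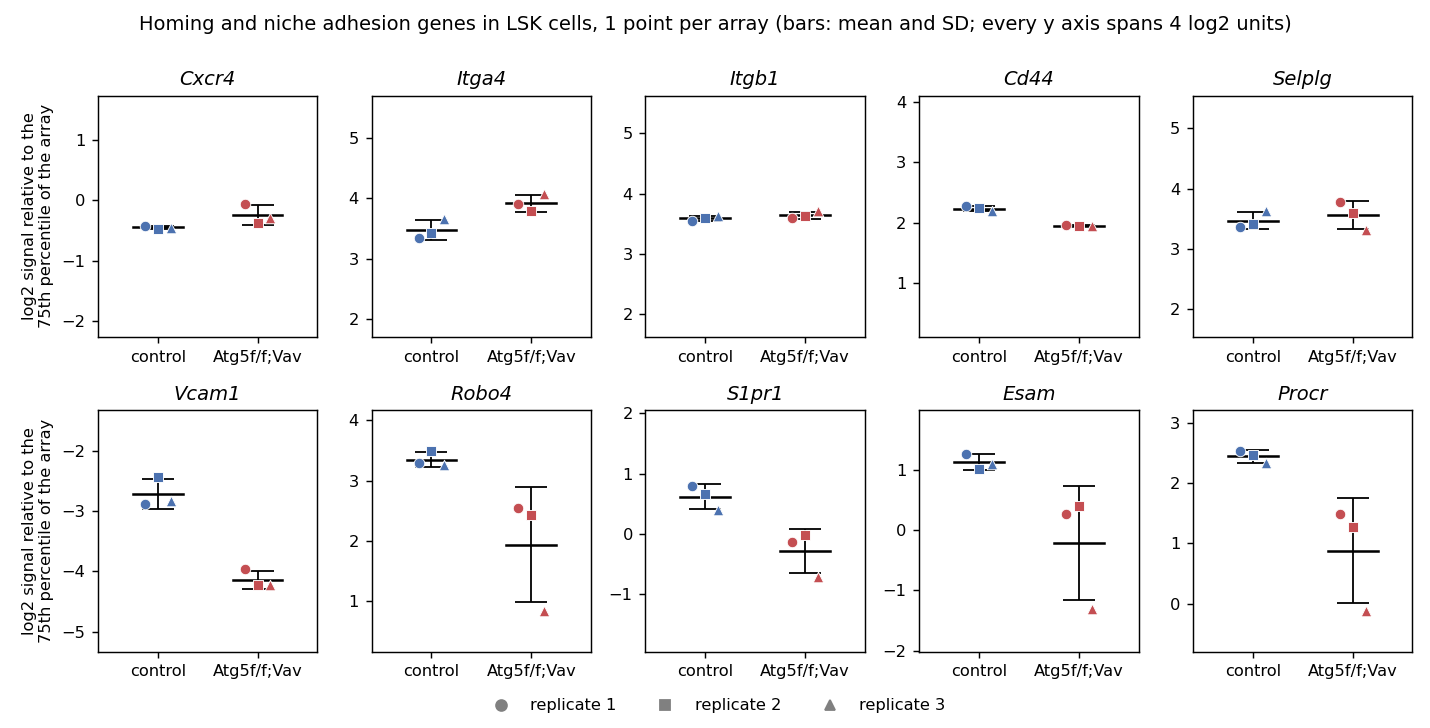
Log2 signal of the 10 genes relative to the 75th percentile of the array (y axis, 4 units in every panel), with 1 point per array, 3 control and 3 Atg5f/f;Vav arrays, and lines for the mean and SD. Robo4, Esam and Procr are spread widely in the Atg5f/f;Vav group, where replicate 3 is the lowest, while Vcam1 separates the groups with little spread in either.

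Some facts of the arrays bear on all 10 genes. All 6 arrays shared 1 slide, control arrays in row 1 and the others in row 2, and the effect of row cannot be told apart from that of genotype. The *Atg5* probe (chr10:44083997-44084056, from base 2251 of the transcript) was higher, not lower, on arrays labelled *Atg5*f/f;*Vav*, by 0.54 (SE 0.12, adjusted p = 0.0209), and the part of the gene that iCre removes is not given in the sources used here, so this probe does not check the genotype. The gate genes *Kit* and *Ly6a* (Sca-1) were well above background on all arrays, and *Ly6a* was 2.97-fold higher on arrays labelled *Atg5*f/f;*Vav* (adjusted p = 0.00623), while *Kit* differed by −0.38 (adjusted p = 0.0563). Of 12 stem cell markers, 6 were lower and none higher on these arrays, with a median log2 fold change of −0.84. Among the 6 that did not pass, 2 had a positive log2 fold change.

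*Procr*, whose product binds protein C and marks HSCs, had log2 signals of 2.52, 2.46 and 2.33 on the control arrays. On arrays labelled *Atg5*f/f;*Vav* they were 1.49, 1.27 and −0.12. Every control array was above all others, and replicate 3 of the latter group lay well below its companions. The difference was −1.56 (SE 0.40, 95% interval −2.50 to −0.62, adjusted p = 0.0273), a 2.95-fold lower signal. Ordered by difference over all genes tested, it stood at percentile 1.82, *Vcam1* at 2.55, *Robo4* at 2.58, *Esam* at 3.04 and *S1pr1* at 7.48. Without replicate 3 the difference was −1.06 with an adjusted p of 0.0090, and leaving out control replicate 1, 2 or 3 gave adjusted p of 0.0859, 0.0901 and 0.0598.

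*Robo4*, the Robo family receptor that anchors HSCs in the BM, had log2 signals of 3.30, 3.49 and 3.25 on the control arrays. Those labelled *Atg5*f/f;*Vav* gave 2.54, 2.43 and 0.84. Again the groups were apart and replicate 3 was the lowest array. *Robo4* was 2.66-fold lower, with a log2 fold change of −1.41 (SE 0.43, 95% interval −2.44 to −0.39, adjusted p = 0.0442). Without replicate 3 of the *Atg5*f/f;*Vav* group the difference was −0.86 (adjusted p = 0.0122), over 1.5 times smaller. The call was lost without control replicate 1, 2 or 3, at adjusted p of 0.108, 0.131 and 0.0902.

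*Esam*, a junction protein of endothelium and platelets, had log2 signals of 1.26, 1.01 and 1.09 in the controls and 0.26, 0.40 and −1.30 in the other group. Its pattern was that of *Robo4*: no overlap, and a single low array. The log2 fold change of −1.34 (SE 0.43, 95% interval −2.36 to −0.32) had an adjusted p of 0.0506, so *Esam* did not pass the test. It passed, at −0.79 and an adjusted p of 0.0144, when the low array was left out, and at 0.0355 when the filter asked for all 6 arrays.

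*Procr*, *Robo4*, *Esam* and *S1pr1* all had their lowest value on replicate 3 of the arrays labelled *Atg5*f/f;*Vav*. So had 10 of the 12 stem cell markers, 69.8% of all genes called lower and 29% of all genes tested. The stem cell transcription factor gene *Hlf*, with 3.74, 3.71 and 3.46 in the controls and 2.36, 2.42 and 1.17 in the other group, shows the same shape (log2 fold change −1.65, adjusted p = 0.0172). *Fgd5*, another HSC marker, went from 0.09, 0.33 and 0.15 to −0.79, −0.87 and −2.15 (log2 fold change −1.46, adjusted p = 0.0242). Of the same 12 markers, *Slamf1* and *Gata2* went the other way, by 0.41 (adjusted p = 0.199) and 0.26 (adjusted p = 0.103), and neither passed. Summed over the 12 markers on a linear scale, in multiples of the 75th percentile, the controls reached 53.9, 53.5 and 50.5 and the other arrays 35.3, 35.4 and 22.7. That sum mostly follows the brightest probes, those of *Meis1* and *Hlf*, and is no measure of the markers together. Replicate 3 also stood apart as an array, with the lowest 75th percentile of intensity (620.3) and the fewest probes well above background (51.58%). Its log2 signals correlated with the controls at 0.9524 to 0.9625, against 0.9755 to 0.9855 for the rest of its group. In bulk LSK cells, fewer HSCs and less RNA per HSC cannot be told apart. The part of either, or of array-wide differences of replicate 3, in the lower signals of *Procr*, *Robo4*, *Esam* and *S1pr1* was not tested.

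**Figure D2:**
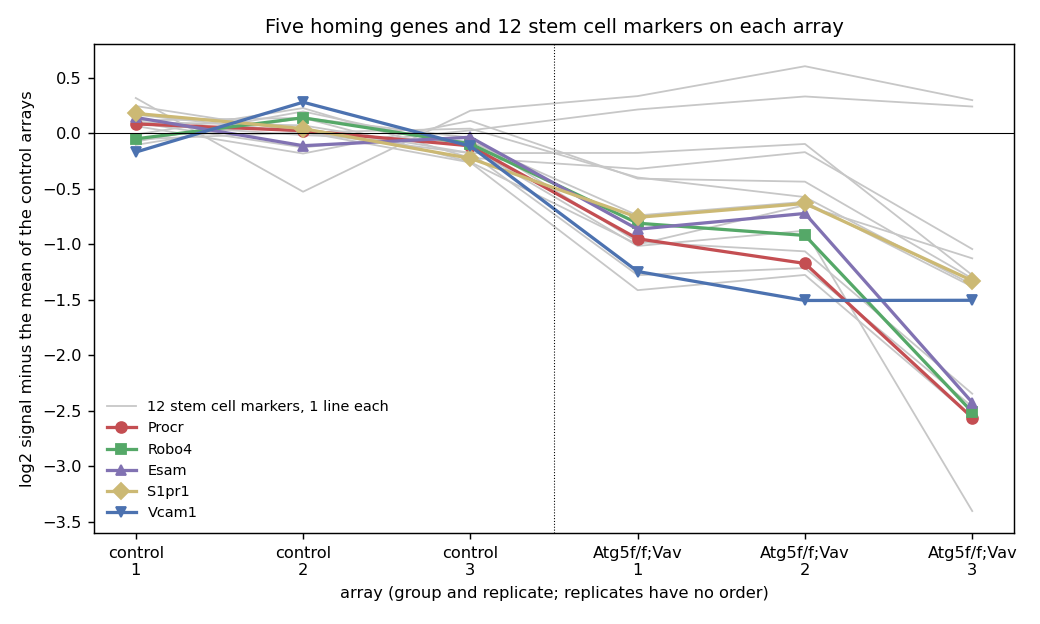
Log2 signal minus the mean of the 3 control arrays (y axis) for Procr, Robo4, Esam, S1pr1 and Vcam1 (coloured) and 12 stem cell markers (grey) on each of the 6 arrays (x axis), joined by lines only to follow a gene. Procr, Robo4, Esam and, to a smaller extent, S1pr1 drop together with most grey lines on Atg5f/f;Vav replicate 3, and Vcam1 is about as low on all 3 of those arrays.

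*Robo4* and *Esam* are also neighbours on chromosome 9, with probes 124 kb apart on mm9. Of the 3 genes tested between them, 1 was called: *Msantd2*, which was lower (log2 fold change −0.76, adjusted p = 0.0168). *Robo3*, next to *Robo4*, differed by −0.15 (SE 0.30, adjusted p = 0.711). *S1pr1* and *Vcam1* lie 399 kb apart on chromosome 3 with 5 tested genes between them, of which *Dph5* was higher (0.68, adjusted p = 0.0155) and *Slc30a7* lower (−0.36, adjusted p = 0.0419). These intervals were looked at after the values of the genes at their ends were seen.

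*Vcam1*, the counter-receptor of VLA-4, was the gene with the smallest adjusted p of the 10. The control arrays gave log2 signals of −2.89, −2.44 and −2.84, and those labelled *Atg5*f/f;*Vav* gave −3.97, −4.23 and −4.23. The groups were far apart, and replicate 3 did not stand out. The difference was −1.42 (SE 0.16, 95% interval −1.79 to −1.04, adjusted p = 0.00864), a 2.67-fold lower signal, and in fits that each left out 1 array the adjusted p lay between 0.0102 and 0.0393. It was nevertheless a dim gene. The lowest log2 signal counted as well above background was −4.82, −4.57 and −4.42 on arrays labelled *Atg5*f/f;*Vav*, only just under *Vcam1*. With normexp background correction the difference was −0.68. The second *Vcam1* probe, at base 842, was well above background on no array and was not tested.

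VCAM1 is known mainly from stromal, endothelial and macrophage cells, whose markers therefore belong beside it. Of 9 stromal markers tested, 4 were lower and none higher, and their summed linear signal was 10.7, 41.4 and 31.2 in the controls and 7.08, 9.90 and 9.84 in the other group, with *Col3a1* and *Pdgfra* well above background on no array. Collagen signal was uneven among the control arrays: *Col1a1* was at −4.14 on control replicate 1 and at 3.23 and 2.95 on the other two. Of 11 endothelial markers tested, 5 were lower (*Kdr*, *Cldn5*, *Ptprb*, *Emcn* and *Sox18*) and 1 higher (*Plvap*). Most of the lower ones were dim: among arrays labelled *Atg5*f/f;*Vav*, *Ptprb* was well above background on none, *Cldn5* on 1, and *Kdr* and *Sox18* on 2 each. *Ptprb*, like *Col1a1* among the stromal markers, passed the filter through the control arrays alone, so its call could hardly be other than lower. *Cdh5*, which defines endothelium, was well above background on no array. The summed endothelial signal was 92.6, 110 and 108 in the controls and 102, 80.7 and 55.8 in the other group. That sum mostly follows *Egfl7*, by far the brightest of these probes, and is no measure of the markers together. *Egfl7* read 6.43, 6.70 and 6.68 in the controls and 6.62, 6.27 and 5.75 in the other group, and did not pass (adjusted p = 0.206). Of 7 macrophage markers tested, *Cd5l* was lower (log2 fold change −1.95, adjusted p = 0.0149), and the summed signal was 7.36, 9.49 and 8.54 against 9.02, 8.87 and 8.67, with *Mrc1*, *Siglec1* and *Vsig4* well above background on no array. Their part in the values of *Vcam1*, *Robo4*, *Esam* and *Procr* was not tested.

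*S1pr1*, the receptor through which blood S1P draws cells out of tissues, had log2 signals of 0.80, 0.66 and 0.39 on the control arrays. The arrays labelled *Atg5*f/f;*Vav* gave −0.14, −0.01 and −0.71. The groups did not overlap, and the spread within them was modest. *S1pr1* was 1.87-fold lower, by a log2 fold change of −0.90 (SE 0.21, 95% interval −1.40 to −0.41, adjusted p = 0.0219). Without *Atg5*f/f;*Vav* replicate 3, its lowest array, the difference was −0.69 (adjusted p = 0.0224). The call was lost without control replicate 1 or 2, at adjusted p of 0.0804 and 0.0819.

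*Cxcr4*, the receptor for CXCL12, was measured by 2 probes and neither passed. The brighter one (chr1:130485079-130485138, minus strand) read −0.42, −0.47 and −0.45 in the controls and −0.06, −0.37 and −0.28 in the other group. The *Atg5*f/f;*Vav* arrays were all slightly above the controls. The difference of 0.21 had a 95% interval of −0.07 to 0.49 and an adjusted p of 0.204. The second probe, from base 416 of the same transcript, differed by 0.13 (adjusted p = 0.576).

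*Itga4*, the chain that gives VLA-4 its binding to VCAM1, read 3.34, 3.42 and 3.66 on the control arrays at its brightest probe and 3.90, 3.79 and 4.06 on the others. That is a log2 fold change of 0.44 (SE 0.13, 95% interval 0.12 to 0.76, adjusted p = 0.0434), or 1.36-fold higher. None of the other 5 *Itga4* probes passed the test. The probe at base 2292, on the same transcript, differed by 0.10 (adjusted p = 0.665), and the remaining 4, on other transcripts of the gene, differed by 0.03, −0.12, 0.01 and −0.17 (adjusted p from 0.343 to 0.939). The mean of all 6 probes differed by 0.05 (adjusted p = 0.749), and the higher signal was seen at the probe from base 9754 alone. The call was also lost under quantile normalisation (0.12, adjusted p = 0.404) and without any 1 of 5 arrays, all but control replicate 3.

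*Itgb1*, the chain shared by VLA-4 and many other integrins, varied little at its brightest probe (chr8:131257001-131257060, plus strand). The values were 3.54, 3.60 and 3.62 in the controls and 3.59, 3.62 and 3.71 in the other group. These ranges overlap, and the difference of 0.05 (adjusted p = 0.70) had a 95% interval of −0.19 to 0.29 and turned to −0.26 under quantile normalisation. The other 2 *Itgb1* probes differed in opposite directions, by 0.26 (adjusted p = 0.145) and −0.43 (adjusted p = 0.0598), although they share a run of 23 bases, shown in capitals within the stretch of each probe that surrounds it (bases 4 to 33 of the probe that starts at base 2631 of the transcript, bases 31 to 60 of the one that starts at base 230).
Itgb1, stretch of the probe from base 2631: acgGGTGAAAATCCTATTTACAAGAGtgcc
Itgb1, stretch of the probe from base 230: tccGGTGAAAATCCTATTTACAAGAGcgcc
The second of these probes is placed on another transcript record of the gene than the first and was well above background on only 2 of the arrays labelled *Atg5*f/f;*Vav*.

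*Cd44*, the hyaluronan receptor, had 3 probes on 1 transcript. The brightest (chr2:102652758-102652817, minus strand) read 2.27, 2.24 and 2.20 in the controls and 1.96, 1.95 and 1.94 in the other group. All controls were higher, by an amount small beside that of *Procr*. The log2 fold change of −0.28 (SE 0.10, 95% interval −0.51 to −0.06) had an adjusted p of 0.0584. The probe from base 1777 (chr2:102677971-102678030, minus strand) passed with a difference of −0.51 (adjusted p = 0.0286), reading −2.10, −2.16 and −2.27 on the control arrays against −2.57, −2.58 and −2.90. The third probe, from base 2614, differed by −0.08 (adjusted p = 0.696). So 1 of 3 *Cd44* probes passed, and all 3 had the same sign.

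*Selplg*, which encodes the selectin ligand PSGL-1, read 3.36, 3.42 and 3.62 in the controls and 3.77, 3.59 and 3.31 in the other group (chr5:114268564-114268623, minus strand). The groups overlapped fully. The difference was 0.09 with a 95% interval of −0.27 to 0.45 and an adjusted p of 0.67, and it turned to −0.21 under quantile normalisation.

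**Figure D3:**
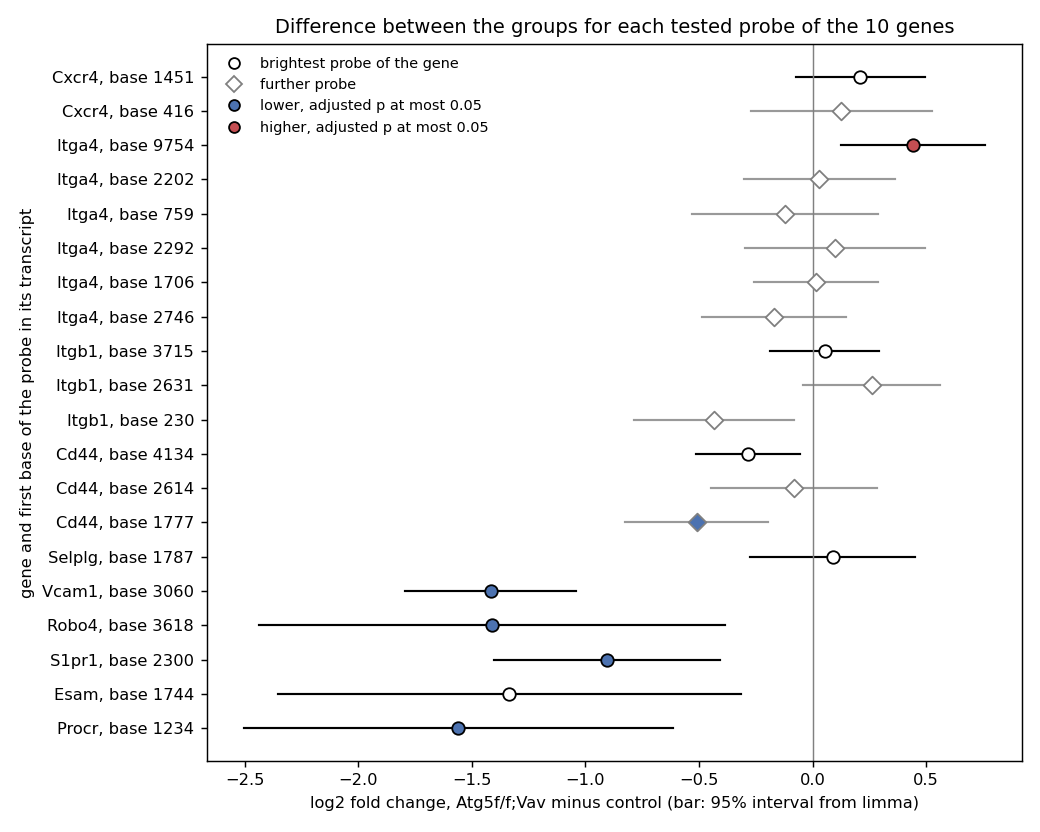
Log2 fold change (x axis, Atg5f/f;Vav minus control) of the 20 tested probes of the 10 genes, with 95% intervals from limma as bars, circles for the brightest probe of a gene and diamonds for further probes, filled where the adjusted p is at most 0.05. Vcam1, Robo4, S1pr1, Esam and Procr lie between −1.56 and −0.90, and every probe of Cxcr4, Itga4, Itgb1, Cd44 and Selplg lies between −0.51 and 0.44.

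Over the 20 tested probes, 1 was called higher and 5 lower, against 17.3% and 17.1% of all probes (34.4% in either direction). Among fits with 1 array left out, *Vcam1* alone of the 10 genes passed in every fit. Without control replicate 1 only 330 probes in all were called, and without control replicate 2 only 251, against 11024 with all arrays. The number of genes among the 10 with an unadjusted p under 0.05 was 7 with all arrays, 5 without control replicate 1 and 6 without control replicate 2.

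**Figure D4:**
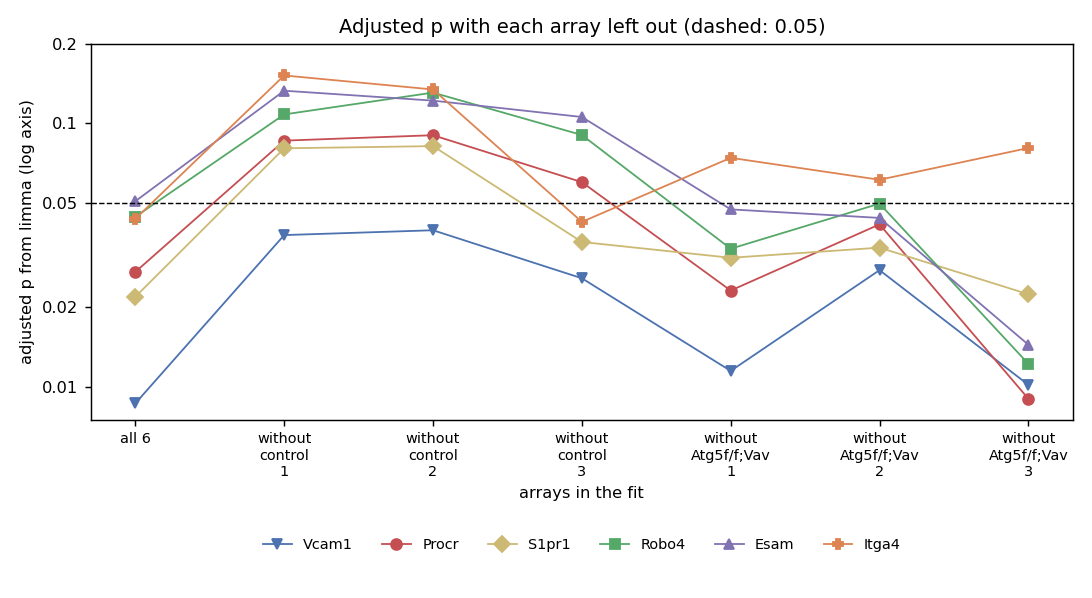
Adjusted p from limma (y axis, log scale, dashed line at 0.05) of Vcam1, Procr, S1pr1, Robo4, Esam and Itga4 with all 6 arrays and with each array left out (x axis), points joined only to follow a gene. Vcam1 stays under the line in every fit, while the others lie above it without control replicate 1 or 2, and Procr, Robo4 and Esam are lowest without Atg5f/f;Vav replicate 3.

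To set the 10 genes among their partners, 118 further homing and adhesion genes were grouped by role, and 101 of them were tested. Of these, 15 were higher, 11 lower and 75 did not pass, so neither count exceeded the background shares of 18.7% and 15.3% in that list, and their median log2 fold change was −0.05. The 17 others had no probe well above background on at least 3 arrays, among them *Cdh5*, *Sele*, *Kitl* and *Ackr3*. Of the 26 called genes, 3 remained called without control replicate 1 and 1 without control replicate 2. Quantile normalisation lost 7 of them (*Col1a1*, *Itga3*, *Sphk2*, *Sgpp1*, *Cd47*, *Icam2* and *Srgap1*), and the 75th percentile over detected probes lost 5 (*S1pr2*, *Sphk2*, *Nrp1*, *F2rl2* and *Itgal*).

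Around *S1pr1*, 4 of 10 S1P genes tested were higher and none lower. Quantile normalisation lost the calls of *Sphk2* and *Sgpp1*, and scaling by the probes detected on every array lost those of *S1pr2* and *Sphk2*. Among the 4, *Sphk1* alone stayed called under both. *Sphk1*, the kinase that makes S1P, read −0.69, −1.11 and −1.01 in the controls and 1.97, 3.19 and 3.89 in the other group, a log2 fold change of 3.95 (SE 0.45, adjusted p = 0.00888). *Sgpp1*, an S1P phosphatase, was higher by 0.67 (adjusted p = 0.0269), and *S1pr2*, a receptor that opposes migration, by 0.51 (adjusted p = 0.0246). The fourth was *Sphk2* (0.43, adjusted p = 0.0383). *Klf2*, the transcription factor that activates *S1pr1*, differed by −0.34 (SE 0.36, adjusted p = 0.472).

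Around *Cxcr4*, none of 8 genes tested passed in limma, and the smallest unadjusted p was 0.0629, for *Rgs2*, a regulator of G-protein signalling (log2 fold change −0.59). *Cxcl12*, its ligand, read −0.59, −2.19 and −3.12 in the controls and −2.06, −5.13 and −1.76 in the other group, with a spread that left the groups overlapping (log2 fold change −1.02, adjusted p = 0.446).

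Around the VLA-4 chains, 3 of 15 other integrin genes tested were higher and 3 lower. *Itga2b*, the platelet integrin chain, was higher by 1.17 (adjusted p = 0.0136), *Itgb7*, the alternative partner of the *Itga4* chain, by 0.84 (adjusted p = 0.0111), and *Itgal*, a chain of LFA-1, by 0.45 (adjusted p = 0.0293, but −0.18 as the mean of its probes). *Itgb7* read 2.09, 2.01 and 2.09 in the controls and 2.79, 2.94 and 2.99 in the other group, with no overlap between the groups. *Itga9*, another chain that pairs with that of *Itgb1* and binds VCAM1, was lower (−1.10, adjusted p = 0.0335, and −0.73 without *Atg5*f/f;*Vav* replicate 3). *Itga2*, a collagen receptor chain, was at least 1.26-fold lower, but was not well above background on any array labelled *Atg5*f/f;*Vav*. It passed the filter through the control arrays alone, so its call could hardly be other than lower. The third was *Itga3* (−0.67, adjusted p = 0.0167), which was well above background on 1 of the 3 arrays labelled *Atg5*f/f;*Vav* and missed the threshold with normexp (−0.25, adjusted p = 0.119) and under quantile normalisation (−0.34, adjusted p = 0.0514). Of 16 genes that activate integrins or tie them to actin, *Fermt3*, the kindlin of blood cells, was higher by 0.69 (adjusted p = 0.0207) and *Cd47* by 0.60 (adjusted p = 0.0235, but 0.22 with adjusted p = 0.153 under quantile normalisation), and none was lower.

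Of 6 integrin and CD44 ligands tested, *Icam2*, a ligand of LFA-1, was higher by 0.75 (adjusted p = 0.0221, but 0.39 under quantile normalisation). *Col1a1*, which was not well above background on any array labelled *Atg5*f/f;*Vav*, was lower with all 6 arrays (adjusted p = 0.0447), but missed the threshold under quantile normalisation (adjusted p = 0.0729), with a replicate block (adjusted p = 0.059) and whenever an array other than control replicate 1 was left out (adjusted p = 0.0802 to 0.139). No fold is given for it, since control replicate 1 lay far below the other controls. It passed the filter through the control arrays alone, so its call could hardly be other than lower. Around *Selplg*, *Tpst1*, which sulphates PSGL-1, was higher by 0.75 (adjusted p = 0.0225).

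Around *Esam*, 3 of 9 junction genes tested were lower and none higher. *Emcn* (endomucin) read 2.13, 1.99 and 2.05 in the controls and 1.39, 1.0 and −0.29 in the other group, with a log2 fold change of −1.36 (adjusted p = 0.0395). *Alcam*, an adhesion molecule of the immunoglobulin family, and *Jam3*, a junction protein that marks HSCs, differed by −1.23 (adjusted p = 0.0289) and −1.11 (adjusted p = 0.035). Without replicate 3 of that group *Emcn* differed by −0.86 and *Jam3* by −0.73. All 3 were lowest on replicate 3 of the arrays labelled *Atg5*f/f;*Vav*, as were 10 of the 11 genes of the wider list that were called lower. *Pecam1*, which all endothelial cells carry, differed by −0.07 (SE 0.12, adjusted p = 0.67).

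Around *Robo4*, 3 of 7 Robo and Slit genes tested were lower and none higher. *Srgap3* and *Srgap1*, which relay Slit and Robo signals inside the cell, differed by −1.08 (adjusted p = 0.0284) and −1.06 (adjusted p = 0.0347). *Slit2*, a Robo ligand counted among them, was at least 1.41-fold lower, but was not well above background on any array labelled *Atg5*f/f;*Vav*. It passed the filter through the control arrays alone, so its call could hardly be other than lower. *Robo1* was dim and differed by −0.61 (adjusted p = 0.164).

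Around *Procr*, 2 of 5 genes of the protein C system were higher and none lower. *F2r*, the thrombin receptor PAR1 through which PROCR can signal, read 1.92, 1.8 and 2.04 in the controls and 2.67, 3.11 and 3.35 in the other group, a log2 fold change of 1.12 (SE 0.19, adjusted p = 0.015). *F2rl2* was higher by 0.76 (adjusted p = 0.0379). *Procr* and *F2r* thus lay on opposite sides of the control arrays. Of 6 niche retention receptors and ligands tested, *Nrp1* was higher by 0.41 (adjusted p = 0.0301) and none was lower, while *Tek*, the angiopoietin receptor, differed by −0.52 (adjusted p = 0.23).

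**Figure D5:**
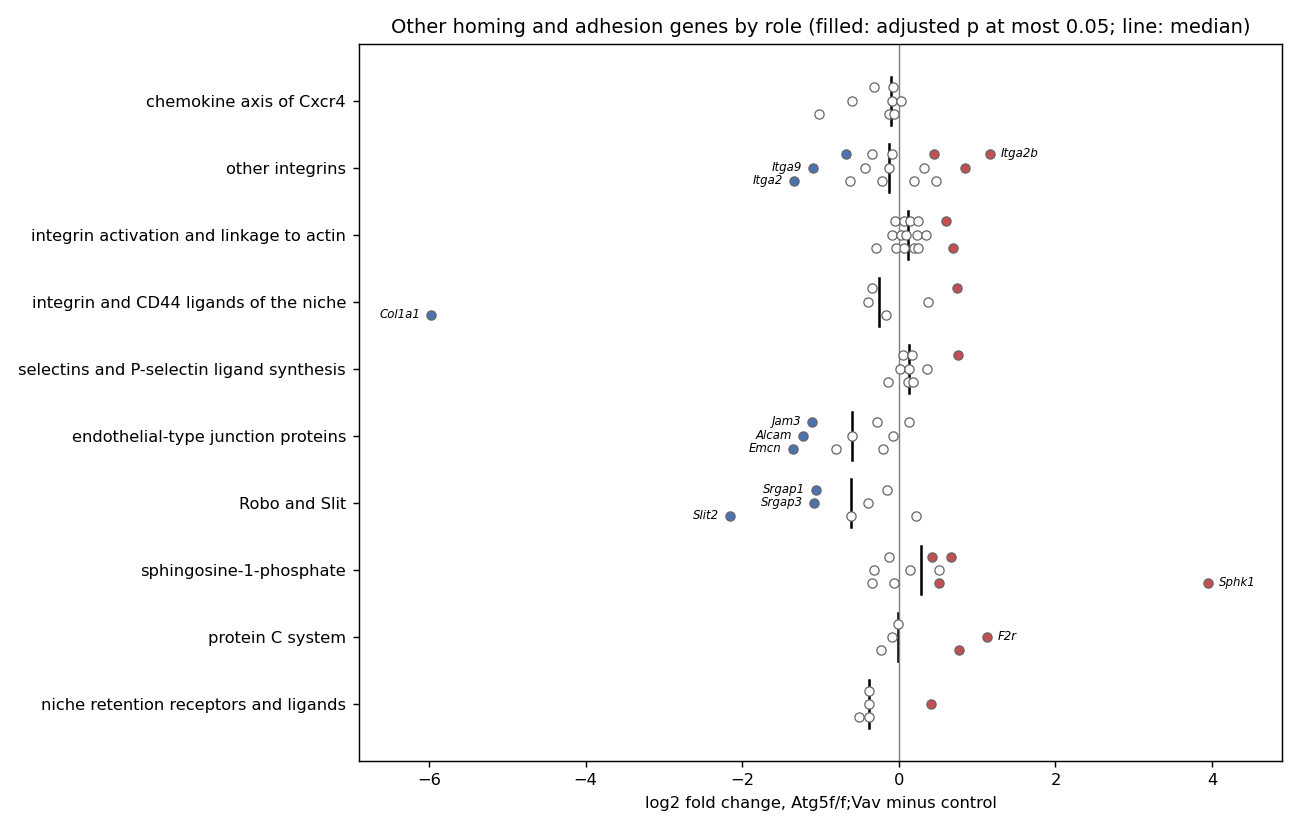
Log2 fold change (x axis, Atg5f/f;Vav minus control) of 90 tested genes of the wider list in 10 role groups (rows), 1 point per gene, blue or red where the adjusted p is at most 0.05 and the median of the drawn genes as a vertical line. Called genes of the junction and of the Robo and Slit groups all lie to the left and those of the S1P and protein C groups to the right; Col1a1, Slit2 and Itga2 are drawn at their fitted values although they were not well above background in the Atg5f/f;Vav group.

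Markers of other lineages differed between the groups as well. Of 12 erythroid markers 6 were higher and 3 lower, of 12 neutrophil markers 3 were higher and 6 lower, of 10 megakaryocyte markers tested 3 were higher and 3 lower, and of 9 lymphoid markers tested 1 was higher and none lower. The higher erythroid genes included the transcription factor gene *Gata1* (8.01-fold, adjusted p = 0.0121), while the globin gene *Hba-a1* was lower (−2.26, adjusted p = 0.0136). *Itga2b* stands in the megakaryocyte list and *Emcn* in the endothelial one. The part of these shifts in the values of the 10 genes was not tested.

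The stretch before the transcription start was on hand, from RefSeq on GRCm38.p6, for 6 of the 10 genes: *Cxcr4*, *Itga4*, *Cd44*, *Procr*, *Itgb1* and *Robo4*. It is shown for *Procr* and *Robo4*, the pair among them with lower signal and the same low array, as the 250 bases that end at the start site. An E-box, CAGCTG, is in capitals.
Procr, chr2:155750967-155751216, plus strand: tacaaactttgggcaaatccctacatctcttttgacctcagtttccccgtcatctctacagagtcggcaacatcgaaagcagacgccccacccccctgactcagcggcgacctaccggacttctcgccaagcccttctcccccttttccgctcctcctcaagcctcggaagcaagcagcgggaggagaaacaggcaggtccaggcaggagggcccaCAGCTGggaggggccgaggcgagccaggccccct
Robo4, chr9:37401722-37401971, plus strand: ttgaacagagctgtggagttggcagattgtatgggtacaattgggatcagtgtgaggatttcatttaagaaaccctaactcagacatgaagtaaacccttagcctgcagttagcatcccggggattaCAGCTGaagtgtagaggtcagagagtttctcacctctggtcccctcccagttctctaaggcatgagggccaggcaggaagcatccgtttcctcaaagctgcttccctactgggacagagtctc
The E-box starts at base 217 of the *Procr* stretch and at base 128 of that of *Robo4*. The search covered both strands and took in the core of ETS factor sites, CCGGAA. It also took in the site bound by GATA factors of blood cells, which was spelt AGATAA. *Itga4* also holds the E-box, *Cd44* holds a GATA site from base 18, and those of *Cxcr4* and *Itgb1* hold none of the letters searched. Among all 32851 promoters of the table, 3952 held the ETS core, 3281 the GATA site and 4271 the E-box, or 12%, 10% and 13%.

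Genes whose log2 signal followed *Vcam1* and *Procr* most closely over the 6 arrays were sought among 20772 others by Pearson's r, as a description, since arrays of 2 groups fix much of any such value. For *Vcam1* they were *BB070754* (r = 0.9977), *Tmem57* (0.9976) and *Galnt4* (0.9955), with log2 fold changes of −0.60, −0.33 and −0.24. For *Procr* they were *Sfi1* (r = 0.9995), *Ak1* (0.9994) and *Rhof* (0.9993), with log2 fold changes of −0.53, −1.15 and −0.77. None of them belongs to the lists used here, and all moved less than the gene they follow.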

How the data were processed

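Total RNA of sorted LSK cells was labelled with Cy3 by the study using a low-input amplification kit and hybridised to 1-colour arrays. The authors deposited, per the file headers, background-corrected intensity per spot from Agilent Feature Extraction 12.0.3.1. The authors also deposited a table of ratios, each spot's intensity over its array's 75th percentile, used here only as an alternative. For the log2 signal, spots of 1 probe were averaged after the 75th percentile of the array's 59305 non-control spots had been subtracted from log2 intensity, and spots with an outlier flag (64 to 81 on an array) were dropped. No spot was saturated. The 75th percentile of intensity ranged from 620.3 to 881.4, and from 51.58% to 58.15% of probes were well above background. The number of arrays limits the precision.

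A probe was tested if well above background on 3 or more of the 6 arrays. *Slit2*, *Itga2*, *Col1a1*, *Ptprb* and the megakaryocyte marker *Ppbp* passed through the control arrays alone, so their calls could hardly be other than lower. They are included in the counts of genes called lower. The test was that of limma 3.58.1, under R 4.3.3, with lmFit and eBayes (2-sided) on all arrays, grouped by their labels, without covariates. Adjusted p is by Benjamini-Hochberg over all tested probes. For a probe not well above background on every array of a group, a fold is the bright group's mean against the higher of the probe's signal and the array's lowest signal well above background. Genes named beside the 10 are, for each role group, at most 3 each way with the largest log2 fold change among those called, genes on which a sentence on 1 of the 10 turns, and the 3 most alike to *Vcam1* and *Procr*. The 10 genes, the wider list and the marker lists (LSK gate, stem cell, endothelial, stromal, macrophage, erythroid, neutrophil, lymphoid and megakaryocyte) were chosen with earlier results of these data known. The steps were tested on simulated data. The alternatives were normexp (offset 50), quantile normalisation, scaling by the probes detected on every array, the authors' ratios, no filter, a filter on all 6 arrays, outliers kept, an intensity trend, the replicate number as a block, the methods' t-test, each array left out, and the mean of a gene's probes. Some genes of the wider list are not reported here, though its totals include them.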

Additional observations from a re-analysis of the deposited data

How the results depend on the processing

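With all 6 arrays, 1 of the 10 genes was called higher and 4 lower, with 11024 probes called in all and 15 genes of the wider list higher and 11 lower. Without a filter on dim probes these counts were 0, 1, 4538, 5 and 3, and with the methods' t-test after adjustment each was 0, although 13541 probes and 5 of the 10 genes (*Itga4*, *Cd44*, *Vcam1*, *S1pr1* and *Procr*) had an unadjusted p of at most 0.05. With each array left out in turn they ranged from 0 to 1, 1 to 5, 251 to 10304, 0 to 14 and 1 to 14. The first count was 0 in every such fit but that without control replicate 3. The others were lowest without control replicate 1 or 2. No gene of the 10 was called higher under quantile normalisation, under the 75th percentile over detected probes or with the mean of a gene's probes. The detected-probe scaling moved the median of all probes from −0.06 to −0.27 and called 3369 probes higher and 10089 lower, against 5540 and 5484, and 19 genes of the wider list lower. The other settings left these counts within 1.5 times.

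*Itgb1* changed sign under quantile normalisation (−0.26), detected-probe scaling (−0.15) and the mean of its probes (−0.040), *Selplg* under quantile normalisation (−0.21), detected-probe scaling (−0.12) and without *Atg5*f/f;*Vav* replicate 1 (−0.019, with 0.21 the highest value when 1 array was left out), and *Itgal* with the mean of its probes (−0.18). The cause was not tested beyond the shift in the median. *Vcam1*, *Robo4*, *S1pr1*, *Esam*, *Procr* and *Cd44* were negative under all 17 alternatives, *Cxcr4* and *Itga4* positive. *Cd44* passed under 4 of them and *Esam* under 7, and *Vcam1* missed the threshold only with the methods' t-test (adjusted p = 0.0534).

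Whether replicate numbers pair the arrays could not be decided from so few values. Deviations from the group means correlated at −0.0654, 0.189 and 0.111 for same-numbered arrays. For arrays of different numbers they ran from −0.301 to 0.132. With the replicate number as a block, 10173 probes were called, with 1 of the 10 genes higher and 4 lower and 15 and 8 genes of the wider list. No block for slide or scan was possible, since all arrays shared both.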
